A study of Mus musculus with 3 samples.

Results

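The proton-sensing receptors measured here are 3 G protein-coupled receptor genes, Gpr4, Gpr65 and Gpr132, in dendritic cells (DCs) of the mouse spleen. They were found as the probe sets (groups of short probes against 1 transcript) that the array's annotation assigns to 1 of these symbols and to no other gene. Each gene had 1 such probe set (Gpr4 10550627, Gpr65 10397645, Gpr132 10402800), which makes 3 of 21789 single-gene probe sets and 3 of 19938 genes. The 3 genes were picked with their values on these arrays already known, so all that follows about them describes these arrays and is no test.

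Proton-sensing receptors sit in the cell membrane and carry histidines on their outer face that take up protons when the surrounding fluid turns acid, as it does in inflamed or poorly perfused tissue. Gpr4 and Gpr65 (also called TDAG8) then signal mainly through the G protein Gs, which switches on adenylyl cyclase and raises cyclic AMP (cAMP). Gpr132 senses acid only weakly and is better known for responses to lysophosphatidylcholine and oxidised fatty acids. Gpr4 has mostly been studied in blood vessel endothelium, Gpr65 in T cells and macrophages, and Gpr132 in lymphocytes and macrophages.

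RNA of 3 sorted populations was read on 3 arrays, 1 per group, each from the spleens of 2 to 3 mice pooled before sorting. The first group, labelled RBPJ-null, was CD11c(hi) CD11b+ Esam(lo) GFP(hi) cells of Cx3cr1-GFP+ RBPJflox/flox CD11c-Cre+ mice, in which Cre under the CD11c promoter targets the floxed gene in CD11c-expressing cells. The others were CD11c(hi) CD11b+ Esam(hi) GFP(lo) cells (control Esam(hi)) and CD11c(hi) CD11b+ Esam(lo) GFP(hi) cells (control Esam(lo)) of Cre-negative RBPJflox/flox littermates. All groups thus carried the Cx3cr1-GFP reporter and the floxed alleles, and the labels used here do not state the ages of the mice. RBPJ is the DNA-binding partner of Notch receptors in the nucleus, and the study asks how Notch2 signalling shapes splenic DCs.

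Values are the authors' log2 expression values, on which a difference of 1 is a 2-fold difference. With 1 array a group there is no replicate error, no p-value and no standard error, and each comparison is between arrays, whose number limits the precision. A gene was counted as different where it was at least 2-fold apart on the authors' values with the brighter array above background, also where the dimmer array was below background and the fold itself is only a bound. Background was set from 1194 odorant and pheromone receptor genes (families Olfr, Vmn1r and Vmn2r), as the 95th percentile of their values on that array. It lay at 6.87 on the array labelled RBPJ-null, 7.17 on the control Esam(hi) array and 6.76 on the control Esam(lo) array. Rbpj itself (probe set 10521913) read 10.04 on the array labelled RBPJ-null, 9.85 on the control Esam(hi) and 9.85 on the control Esam(lo) array, so it did not check the label, and directions drawn from that array rest on its label. The remaining Rbpj probe set (10521911) never exceeded background. Esam followed the sort, at 6.12 on the array labelled RBPJ-null, 7.79 on the control Esam(hi) and 6.57 on the control Esam(lo) array. All 10 classical DC markers, among them Itgax, Flt3 and Zbtb46, were above background on each array.

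The sequence just upstream of each receptor gene is shown because the mutation targets a DNA-binding protein, so that the letters RBPJ is known to recognise can be looked for. The windows are the 250 bases before a transcript start in RefSeq's annotation of build GRCm38.p6. They lie outside the annotated transcript for Gpr4 and Gpr65, and inside the annotated span of Gpr132, whose listed start is internal to the gene. Capitals mark a match to a motif searched on both strands.
Gpr4, chr7:19212288-19212537, plus strand: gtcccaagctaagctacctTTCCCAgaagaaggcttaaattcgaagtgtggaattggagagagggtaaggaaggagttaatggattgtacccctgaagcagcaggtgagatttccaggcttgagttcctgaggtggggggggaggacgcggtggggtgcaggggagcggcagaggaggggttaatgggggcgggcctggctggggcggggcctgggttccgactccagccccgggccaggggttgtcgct
Gpr65, chr12:98268385-98268634, plus strand: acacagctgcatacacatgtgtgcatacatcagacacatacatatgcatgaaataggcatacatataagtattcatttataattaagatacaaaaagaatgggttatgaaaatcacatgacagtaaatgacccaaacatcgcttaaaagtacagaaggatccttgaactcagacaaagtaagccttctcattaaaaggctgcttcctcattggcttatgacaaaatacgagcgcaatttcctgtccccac
Gpr132, chr12:112860917-112861166, minus strand: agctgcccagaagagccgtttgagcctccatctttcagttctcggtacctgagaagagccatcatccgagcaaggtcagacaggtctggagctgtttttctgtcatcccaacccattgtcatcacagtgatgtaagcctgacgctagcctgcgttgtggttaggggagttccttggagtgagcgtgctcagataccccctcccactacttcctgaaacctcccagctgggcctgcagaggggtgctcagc
The Gpr4 window held 1 match to the core letters TGGGAA of RBPJ, on the opposite strand, at bases -231 to -226 counted back from the transcript start. The windows of Gpr65 and Gpr132 held none. Of 32817 windows of the same length, 21.6% held TGGGAA on either strand. The longer form GTGGGAA, which contains the core, was in 5.42% of windows and in none of the 3 shown. The cAMP response element TGACGTCA (1.55% of windows), bound by CREB, and the letters GAGGAAGT (2.44%), bound by the myeloid factor PU.1, were also in none of the 3. The windows differed in composition, with 61.2% G and C and 9 CpG sites for Gpr4, 36.8% and 3 for Gpr65, and 55.6% and 6 for Gpr132. A match describes letters in this window and shows no binding.

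Gpr4 was the receptor gene that differed between the arrays. It read 7.07 on the array labelled RBPJ-null, 9.49 on the control Esam(hi) array and 7.63 on the control Esam(lo) array. The control Esam(hi) array stood high and both Esam(lo) arrays stood low. Above each array's own background level, Gpr4 lay by 0.20 on the array labelled RBPJ-null, by 2.33 on the control Esam(hi) array and by 0.87 on the control Esam(lo) array, so the lowest value was barely above background.

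Gpr65 read 10.64 on the array labelled RBPJ-null, 10.03 on the control Esam(hi) array and 10.28 on the control Esam(lo) array. On these deposited values its order was thus the reverse of that of Gpr4, over a range of 0.61. The array labelled RBPJ-null was highest and the control Esam(hi) array lowest. The order of the control arrays for Gpr65 depended on the scaling, as given below. Gpr132 read 11.91, 11.84 and 11.91 on the same arrays in that order and spanned 0.07. Its values on both Esam(lo) arrays were exactly equal, which the median polish step of RMA can produce over few arrays, so the tie does not show that the gene was the same in both. Gpr65 and Gpr132 were well above background on all 3 arrays. In these bulk samples, fewer cells expressing a gene and less of its RNA per cell cannot be told apart.

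**Figure D1:**
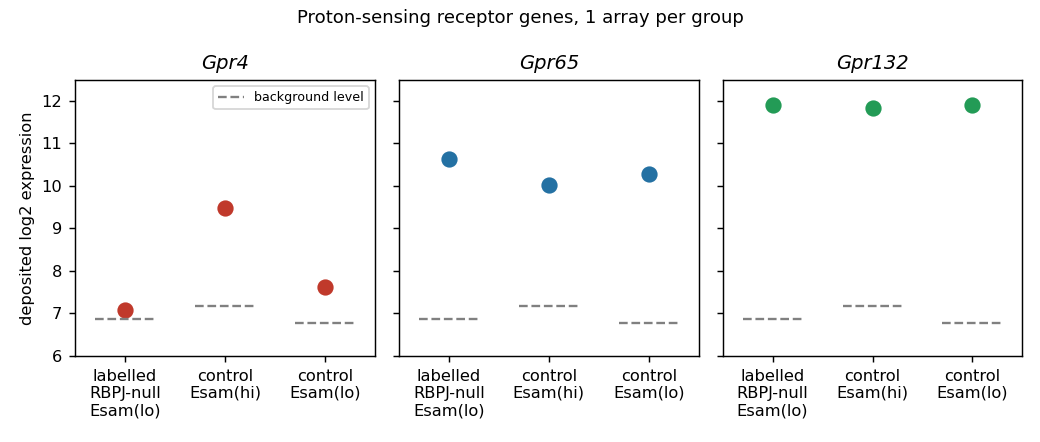
Deposited log2 expression of Gpr4, Gpr65 and Gpr132 (vertical axis) on the array labelled RBPJ-null Esam(lo), the control Esam(hi) array and the control Esam(lo) array, 1 point per array, with each array's background level dashed. Gpr4 stands at 9.49 on the control Esam(hi) array and within 0.20 of background on the array labelled RBPJ-null, while Gpr132 stays between 11.84 and 11.91.

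Against the control Esam(hi) array, the array labelled RBPJ-null had less Gpr4 and similar or slightly higher values of the other receptor genes. Gpr4 was 5.35-fold lower, a log2 difference of -2.42. By the 2-fold rule 110 of 9312 genes (1.18%) were lower there and 1203 (12.9%) higher, so the lower side to which Gpr4 belongs was the rarer. Including Gpr4 itself, 7 of the 9312 genes were at least as far below, and 3 protein-coding genes were farther. Among the 3027 genes within 0.5 of Gpr4's mean level the median difference was 0.38, and the 5th and 95th percentiles were -0.44 and 1.38. Gpr65 differed by 0.61 (1.53-fold higher), beside a median of 0.44 over 773 genes of like level, and Gpr132 by 0.07 beside 0.26 over 175 genes. Neither was 2-fold apart.

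Between both Esam(lo) populations the receptor genes differed little. Gpr4 read 7.07 on the array labelled RBPJ-null against 7.63 on the control Esam(lo) array, a difference of -0.56 or 1.48-fold, short of the 2-fold rule. These arrays were close to each other: 7 of 9348 genes (0.0749%) were 2-fold higher and 18 (0.193%) 2-fold lower, and the 5th and 95th percentiles of the differences were -0.20 and 0.22. In that narrow spread 50 genes (0.535%), Gpr4 included, were at least as far below as Gpr4. Gpr65 read 10.64 against 10.28, a difference of 0.37 (1.29-fold higher), and 133 genes (1.42%) were at least as far above. Gpr132 read 11.91 on both, and 3753 genes (40.1%) were tied in this way between these arrays. Ties that the median polish step of RMA produces would narrow the spread given here. How far apart repeat arrays of 1 population would lie is not known here, so the sizes of these small differences have no error to be read against.

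Within control mice, Gpr4 was the protein-coding gene farthest above on the Esam(hi) array. It read 9.49 on the Esam(hi) array against 7.63 on the Esam(lo) array, a difference of 1.86 or 3.63-fold. The 2-fold rule counted 75 of 9196 genes (0.816%) as higher in the Esam(hi) cells and 1066 (11.6%) as lower. Of the 75, 49 were protein-coding, and 1 gene of another kind, the small nucleolar RNA gene Snord118, lay farther above than Gpr4. Genes within 0.5 of Gpr4's mean level had a median difference of -0.45, and the 5th and 95th percentiles over these 2745 genes were -1.35 and 0.29. Gpr65 had 10.03 on the Esam(hi) array against 10.28 on the Esam(lo) array (-0.25), beside a median of -0.46 over 926 genes of like level. Gpr132 had 11.84 against 11.91 (-0.07), beside -0.34 over 170 genes. The comparisons share arrays, so the Esam(hi) value of Gpr4 enters both of its 2-fold differences.

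**Figure D2:**
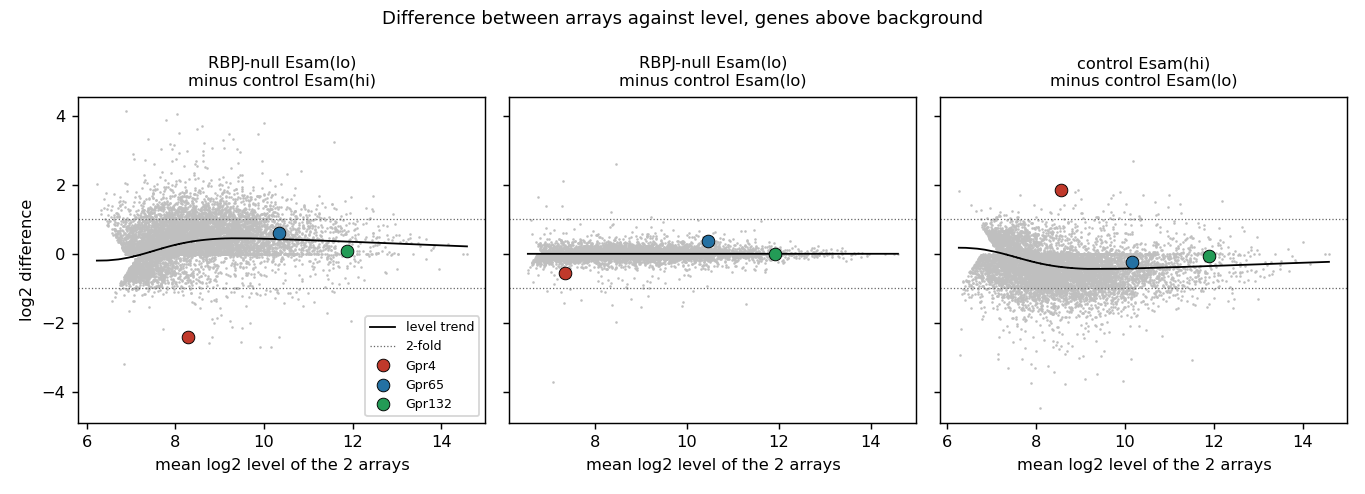
Log2 difference between 2 arrays (vertical axis) against their mean log2 level (horizontal axis) for genes with the brighter array above background, grey points, in the 3 comparisons; RBPJ-null is the label of the array. The black line is the level trend and the dotted lines mark 2-fold; Gpr4 lies at -2.42, -0.56 and 1.86 from the left panel to the right, outside the 2-fold lines in the outer panels, and Gpr65 and Gpr132 lie inside them in all 3.

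Many differences from the control Esam(hi) array followed level, as the trend lines in the plot of difference against level show, so 3 other scalings were set beside the deposited one. Gpr4 kept its direction and its side of the 2-fold rule in each. On the control Esam(hi) array relative to the control Esam(lo) array its difference was 1.75 with each array centred on its median, 2.10 with quantile normalization and 2.24 with the level trend removed. On the array labelled RBPJ-null relative to the control Esam(hi) array it was -2.31, -2.65 and -2.76 under the same scalings. The difference between the Esam(lo) arrays stayed between -0.56 and -0.55. Counts over all genes moved more: with the level trend removed the control Esam(hi) array had 180 higher and 487 lower genes relative to control Esam(lo), and 567 were higher and 223 lower on the array labelled RBPJ-null than on the control Esam(hi) array.

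For Gpr65 and Gpr132 the direction between the control subsets depended on the scaling. Gpr65, at -0.25 on the deposited values, was at 0.05 with quantile normalization and 0.18 with the trend removed. Gpr132, at -0.07, was at 0.20 and 0.29. The higher Gpr65 value on the array labelled RBPJ-null kept its sign in all 4 scalings, at 0.36 to 0.37 against control Esam(lo) and 0.19 to 0.72 against control Esam(hi). Gpr132 on that array against control Esam(hi) turned from 0.07 on the deposited values into -0.22 with quantile normalization and -0.29 with the trend removed.

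**Figure D3:**
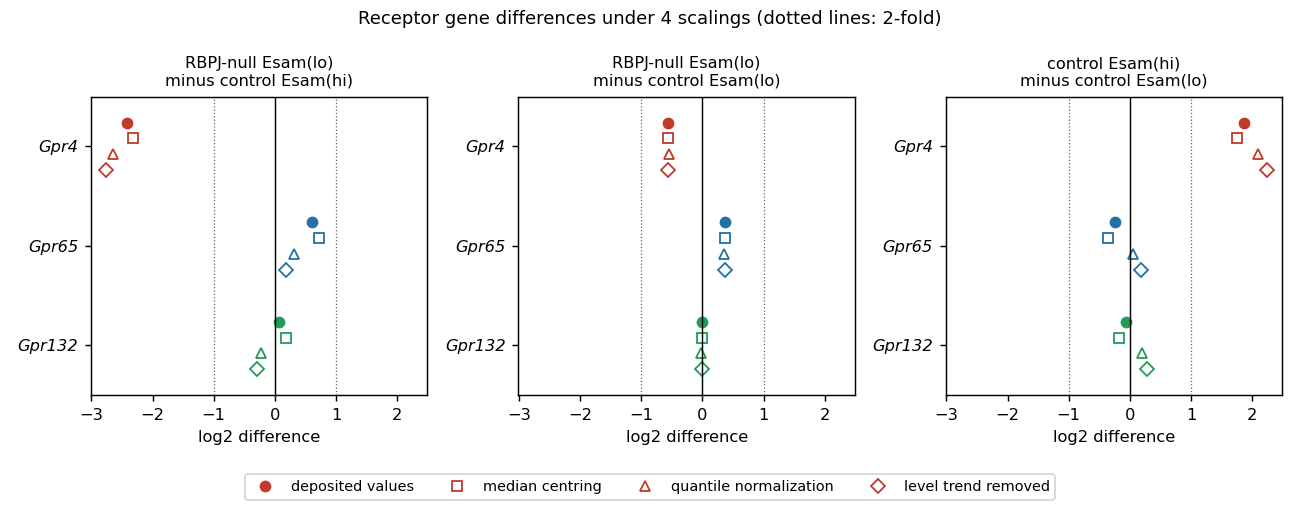
Log2 differences of Gpr4, Gpr65 and Gpr132 (horizontal axis) in the 3 comparisons on the deposited values (filled circles), with median centring (squares), quantile normalization (triangles) and the level trend removed (diamonds); dotted lines mark 2-fold and RBPJ-null is the array's label. Gpr4 stays beyond 2-fold in both comparisons with the control Esam(hi) array, and Gpr132 lies on both sides of 0 there.

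Likeness of pattern to each receptor was the Euclidean distance between log2 values centred on each gene's own mean over the 3 arrays, among 9230 other protein-coding genes above background on at least 1 array. The distance is not scaled for the size of a gene's own differences. The nearest to Gpr4 were Srsy (distance 0.15), Dtx1 (0.31), Ifnz (0.42), Arap2 (0.46) and Abcb1a (0.56). Srsy and Ifnz belong to families of near-identical genes whose probes can share signal, so their values are uncertain. Srsy is also a gene of the Y chromosome. Eif2s3y, another Y chromosome gene, differed by -1.34 on the array labelled RBPJ-null relative to the control Esam(lo) array. The sexes of the pooled mice were not compared here, and their part in these values was not tested. Dtx1, which encodes the Notch regulator Deltex and is a known Notch target, read 8.56 on the array labelled RBPJ-null, 11.25 on the control Esam(hi) and 9.55 on the control Esam(lo) array.

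Arap2, a GTPase-activating protein for Arf, read 8.02 on the array labelled RBPJ-null, 9.88 on the control Esam(hi) array and 8.03 on the control Esam(lo) array. Abcb1a, a drug efflux pump, read 7.88, 9.88 and 8.80 in the same order. Both stood highest on the control Esam(hi) array, as Gpr4 did. Between the Esam(lo) arrays they differed: Arap2 by -0.01 and Abcb1a by -0.92, with Gpr4 between them at -0.56.

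Nearest to Gpr65 were Dynlt3, a dynein light chain (distance 0.02), Crybg1 (0.05), Stx12, a syntaxin of endosomes (0.06), Prc1, which bundles microtubules in dividing cells (0.06), and Atg4a, an autophagy protease (0.06). Dynlt3 read 7.48 on the array labelled RBPJ-null, 6.85 on the control Esam(hi) array and 7.13 on the control Esam(lo) array. The nearest to Gpr132 were Mex3c, Rassf8, 1810058I24Rik, Skiv2l and Cbx1, all within 0.0003. They are tied between both Esam(lo) arrays and about 0.07 lower on the control Esam(hi) array. Within a distance of 0.25 lay 601 of the 9230 genes for Gpr65 and 3936 for Gpr132, beside 1 for Gpr4. The genes named for Gpr65 and Gpr132 are thus only the first of many with a like pattern.

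**Figure D4:**
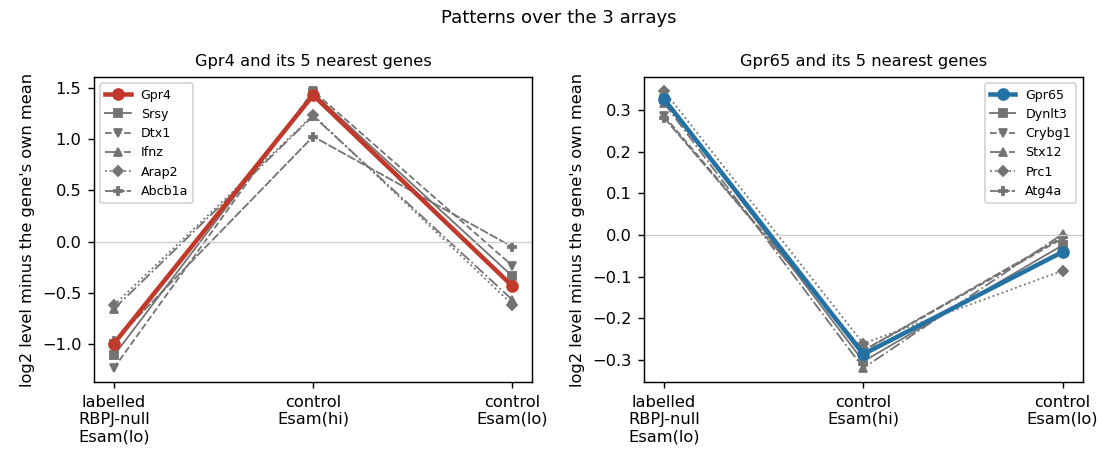
Log2 level minus the gene's own mean over the 3 arrays (vertical axis) for Gpr4 and Gpr65 (coloured) and for the 5 protein-coding genes nearest to each (grey), on the array labelled RBPJ-null Esam(lo), the control Esam(hi) array and the control Esam(lo) array. The Gpr4 group peaks on the control Esam(hi) array and spreads on the Esam(lo) arrays, and the Gpr65 group is lowest on the control Esam(hi) array over a far smaller range.

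None of the measured genes next to the receptors on the chromosome was 2-fold apart in any comparison. Few of them were above background. Between the control arrays 0.816% of all genes were higher and 11.6% lower, so none among so few lies near that share. Of the 3 protein-coding genes on either side of Gpr4 on chromosome 7, 5 were measured. The nearest on either side, Eml2 and Opa3, differed between the control Esam(hi) and control Esam(lo) arrays by 0.07 and 0, beside 1.86 for Gpr4; Vasp and Snrpd2 differed by 0 and -0.25, and Gipr was below background. Around Gpr65, on chromosome 12, only Galc was above background among 5 measured neighbours. Galc, a lysosomal galactolipid hydrolase, read 7.36 on the array labelled RBPJ-null, 6.68 on the control Esam(hi) array (below background) and 7.14 on the control Esam(lo) array, the same order as Gpr65. Around Gpr132, also on chromosome 12, Cdca4, Nudt14 and Brf1 were above background. Of these Nudt14 differed most between the control Esam(hi) and control Esam(lo) arrays, by -0.74. The Notch ligand gene Jag2 was below background at 6.73 on all 3 arrays.

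The machinery through which the receptors signal was read from 11 lists that hold 152 genes, 135 of them on the array. Between the control arrays, 1 of the 81 list genes above background passed the rule as higher in Esam(hi) cells (1.23%, beside 0.816% of all genes) and 11 were lower (13.6%, beside 11.6%). On the array labelled RBPJ-null 11 of 81 were higher relative to control Esam(hi) (13.6%, beside 12.9%) and 1 was lower (1.23%, beside 1.18%). Against the control Esam(lo) array 1 of 83 was higher (1.20%, beside 0.0749%) and none lower. All these shares rest on few genes, and those against the Esam(hi) array lie near the share over all genes. The median difference of the list genes between the control arrays was -0.35, beside -0.32 over all genes above background.

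Of 26 listed genes of the Gs and cAMP arm 23 were on the array, and 13 were above background between the control arrays. Gnas, which encodes the alpha subunit of Gs itself, was not among the 23 and could not be read, nor could Prkaca and Rapgef4. Of the 13, 1 was 2-fold higher and 1 lower in Esam(hi) cells, beside 0.816% and 11.6% of all genes. Adcy6, an adenylyl cyclase that Gs activates, read 7.35 on the array labelled RBPJ-null, 8.14 on the control Esam(hi) array and 7.07 on the control Esam(lo) array. Its Esam(hi) value exceeded its Esam(lo) value in controls by 2.11-fold (1.08), and by 0.96 with median centring, just short of 2-fold. Prkar2a, a regulatory subunit of the cAMP-dependent kinase, read 8.20, 6.62 and 8.20 in the same array order and was at least 2.05-fold lower on the control Esam(hi) array, where it was below background. The list's median between the control arrays was -0.34 and turned to 0.08 with the trend removed. None of these genes was 2-fold apart between the Esam(lo) arrays, where 0.0749% of all genes were higher and 0.193% lower.

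The enzymes that break cAMP down and the genes that CREB switches on had no 2-fold difference in any comparison on the deposited values. Between the control arrays 0.816% of all genes were higher and 11.6% lower, so none in lists this small lies near that share. Of 14 phosphodiesterase genes 6 were above background; the brightest, Pde4b, read 9.63 on the array labelled RBPJ-null, 9.61 on the control Esam(hi) array and 9.63 on the control Esam(lo) array, and Pde7a read 8.93, 8.76 and 8.93. Of 13 CREB-responsive genes 12 were on the array, and 10 were above background between the control arrays. Their median difference of -0.06 became 0.22 with the trend removed. Dusp1, a phosphatase of MAP kinases, read 13.54 on the array labelled RBPJ-null, 13.07 on the control Esam(hi) and 13.58 on the control Esam(lo) array. The nuclear receptor gene Nr4a1 read 13.36 on all 3. It was exactly tied between the Esam(lo) arrays, which, as for Gpr132, does not show that it was the same in both. The related gene Nr4a3, named after its values were seen, read 12.46, 13.03 and 12.24. Its control difference of 0.79 passed 2-fold with quantile normalization (1.04) and with the trend removed (1.11). Of 13 other Gs-coupled receptor genes 9 were on the array, and 3 were above background between the control arrays. Ptger4, a receptor for prostaglandin E2, read 10.45, 9.84 and 10.22, and the histamine receptor gene Hrh2 read 7.74, 7.74 and 7.82, neither 2-fold apart.

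Other G protein arms had single genes past the rule. In the G12/13 list 1 of 10 genes was lower on the control Esam(hi) array, beside 11.6% of all genes. This was Gna12, a G protein alpha subunit. It read 9.52 on the array labelled RBPJ-null, 8.56 on the control Esam(hi) array and 9.63 on the control Esam(lo) array. Its control difference of -1.07 was -0.64 with the trend removed. Of 5 Gi/o subunit genes on the array 2 were above background. Both passed the rule as lower in control Esam(hi) cells relative to control Esam(lo), beside 11.6% of all genes. Gnai2 differed by -1.01 and Gnai3 by -1.07, and with the trend removed they were at -0.64 and -0.74, short of 2-fold. In the Gq/11 list Plcb4, a phospholipase C, read 9.76 on the array labelled RBPJ-null, 6.78 on the control Esam(hi) array and 7.15 on the control Esam(lo) array. It was 6.11-fold higher on the array labelled RBPJ-null than on the control Esam(lo) array and was the list gene counted there. Prkcd, a protein kinase C, was 2.19-fold higher on that array than on the control Esam(hi) array (11.52 and 10.38), and 0.73 on the log2 scale with the trend removed.

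Of the proteins that shut off or redirect receptor signalling, 2 of 12 were 2-fold lower on the control Esam(hi) than on the control Esam(lo) array. Over all genes the share was 11.6%. Arrb1, a beta-arrestin, read 9.77 on the array labelled RBPJ-null, 8.47 on the control Esam(hi) array and 9.76 on the control Esam(lo) array, and its control difference of -1.29 was -0.85 with the trend removed. Rgs18, a regulator of G protein signalling, read 9.52, 7.73 and 9.27, and stayed 2-fold lower at -1.17. Rgs1, of the same family, ran the other way, at 10.99 on the array labelled RBPJ-null, 12.08 on the control Esam(hi) array and 11.20 on the control Esam(lo) array. It was 2.12-fold lower on the array labelled RBPJ-null than on the control Esam(hi) array (-1.09), and the difference was -0.98 with median centring, -1.34 with quantile normalization and -1.46 with the trend removed. Between the controls Rgs1 differed by 0.88 (1.13 with quantile normalization) and Rgs3 by 0.59, and with the trend removed both passed 2-fold as higher in Esam(hi) cells, at 1.25 and 1.02.

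Most other acid sensors were at background. Of 11 measured acid-sensing channels and receptors, only the acid-activated chloride channel gene Pacc1 was above background on all 3 arrays, at 9.33 on the array labelled RBPJ-null, 8.67 on the control Esam(hi) array and 9.44 on the control Esam(lo) array. Asic4, at 6.76, 7.29 and 6.80, was above background on both control arrays and not on the array labelled RBPJ-null. Among genes of acid production and export, 1 of 7 was lower on the control Esam(hi) than on the control Esam(lo) array, beside 11.6% of all genes. This was Slc16a7, a lactate and pyruvate transporter, at 7.48 on the array labelled RBPJ-null, 5.75 on the control Esam(hi) array (below background) and 7.31 on the control Esam(lo) array; against the background level it was at least 1.11-fold lower than on the control Esam(lo) array.

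The list of lysophosphatidylcholine enzymes and related lipid enzymes, named for lipids to which Gpr132 has been reported to respond, had 8 genes above background between the control arrays. Of these, 4 passed the rule as lower in Esam(hi) cells, beside 11.6% of all genes, and none as higher. The list's median was -0.87, beside -0.32 over all genes above background, and -0.59 with the trend removed. Pla2g7, which cleaves platelet-activating factor and oxidised phospholipids, read 9.74 on the array labelled RBPJ-null, 8.12 on the control Esam(hi) array and 10.20 on the control Esam(lo) array, a 4.25-fold difference between the controls. Lpcat3, which adds fatty acids back to lysophosphatidylcholine, read 9.37, 7.85 and 9.30, and Lpcat4, of the same enzyme group, read 9.49, 8.32 and 9.62. Alox5, the 5-lipoxygenase, which acts on arachidonic acid and not on lysophosphatidylcholine itself, read 7.95, 6.94 (below background) and 7.95, at least 1.72-fold lower on the control Esam(hi) array. With the trend removed 2 of the 4, Pla2g7 and Lpcat3, remained 2-fold lower. The same 4 genes passed the rule as higher on the array labelled RBPJ-null relative to control Esam(hi), beside 12.9% of all genes. Alox5 again had a bound of at least 1.72-fold. No gene of the list was 2-fold apart between the Esam(lo) arrays, where 0.0749% of all genes were higher and 0.193% lower.

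**Figure D5:**
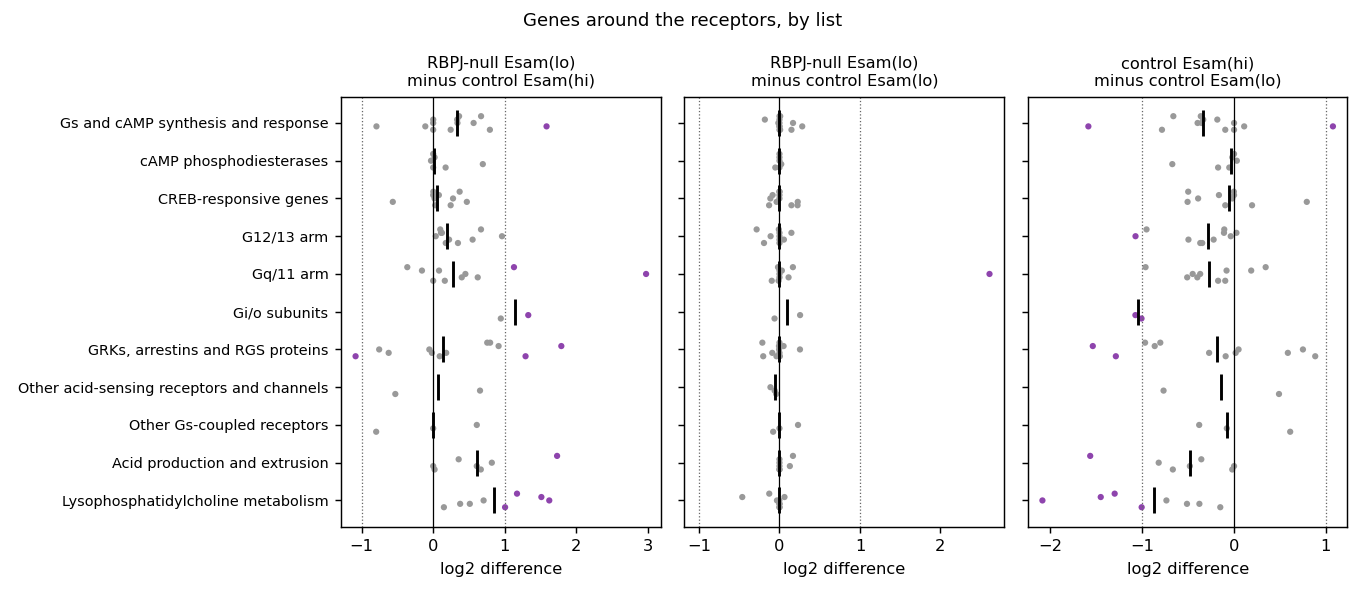
Log2 differences (horizontal axis) of genes in the 11 lists around the receptors, for genes with the brighter array above background in each of the 3 comparisons; purple points pass the 2-fold rule, grey points do not, black ticks are list medians and RBPJ-null is the array's label. The middle panel has 1 purple point, Plcb4, and the lysophosphatidylcholine list has 4 in each outer panel.

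Markers of other cell types were read beside Gpr4, which endothelium is known to express. Of 15 endothelial markers, 2 (Pecam1 and Eng) were above background, on all 3 arrays. The defining genes Cdh5, Kdr, Tie1 and Tek were at or below background on each array. The summed level of the list, on a linear scale, was 1526 on the array labelled RBPJ-null, 1598 on the control Esam(hi) array and 1538 on the control Esam(lo) array. Monocyte markers ran the other way from Gpr4, with summed levels of 29962, 13091 and 30926 in the same order and 9, 6 and 9 of 9 above background. Neutrophil markers summed to 21619, 9046 and 19754, with 9, 8 and 9 of 10 above background.

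Stromal markers were highest on the control Esam(hi) array, as Gpr4 was, with sums of 893 on the array labelled RBPJ-null, 1393 on the control Esam(hi) array and 959 on the control Esam(lo) array, and 3, 4 and 5 of 10 above background. Those above background on the control Esam(hi) array were Ccl19, at 7.14 on the array labelled RBPJ-null, 8.32 on the control Esam(hi) array and 7.35 on the control Esam(lo) array, Col1a1 at 7.44, 8.40 and 7.72, Col1a2 at 6.90, 7.50 and 6.93, and Pdpn at 6.78, 7.33 and 6.82. All 4 were brightest on the control Esam(hi) array, as Gpr4 was, and Ccl19 was 2.26-fold lower on the array labelled RBPJ-null relative to control Esam(hi). Pdgfra, Pdgfrb, Dcn and Lum were below background on all 3 arrays. Erythroid markers likewise summed to 379.9, 554 and 406, with 0, 2 and 1 of 5 above background. B cell markers summed to 1863, 2146 and 2043, T cell markers to 1439, 1458 and 1419, and natural killer markers to 2420, 1297 and 2457. The part of other cell types in the Gpr4 and Gpr65 differences was not tested.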

How the data were processed

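RNA was extracted on silica columns, amplified, biotin-labelled and hybridised to Affymetrix Mouse Gene 1.0 ST arrays, as the labels' protocols state. The authors deposited log2 expression values of 35556 probe sets on 3 arrays, made with RMA and Affymetrix Expression Console, per the submitters' processing notes; not given in the sources used here are versions, the annotation's genome build and which arrays were normalized together. Of the probe sets, 21789 carry a single gene name in the platform annotation and were used; 1621 carry several names and 12146 carry no name. Entrez numbers of 21698 were found in RefSeq's GRCm38.p6 gene table and 91 were not. For 999 genes with several probe sets the brightest on average was kept. Differences, counts, a lowess trend (fraction 0.3) and quantile normalization were computed with Python 3.11.15, pandas 2.3.3, numpy 2.4.6 and statsmodels 0.14.6, and tested on simulated data. Where the dimmer array was below background, the fold is a bound ("at least") against that array's background level.

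The receptors and gene lists were chosen with earlier results of these data known. Named genes are the receptors, the label checks, up to 4 list genes per comparison past the 2-fold rule (otherwise the 2 brightest), and the 5 nearest patterns. Neighbouring genes, Snord118, Jag2, Galc, Nr4a3, Rgs3, Eif2s3y, Mpo, Elane and the stromal genes given with values were added by position or after values were seen.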

Additional observations from a re-analysis of the deposited data

How the results depend on the processing

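Each of 9 receptor gene differences was recomputed under 8 alternatives. Of the 72 values, 65 kept their direction and their side of the 2-fold rule, all those of Gpr4 among them. Most of the 72 could not change direction. The filters and thresholds left each log2 difference as it was, as did averaging over probe sets, since no receptor gene had a further one. Only median centring, quantile normalization and removal of the level trend could change a direction. Gpr132 between the Esam(lo) arrays was at 0 on the deposited values, so it had no direction to lose. Gpr65 between control Esam(hi) and control Esam(lo) turned from -0.25 to 0.048 (quantile normalization) and 0.18 (level trend removed). Gpr132 turned from -0.07 to 0.20 and 0.29 there, and from 0.07 to -0.22 and -0.29 on the array labelled RBPJ-null against control Esam(hi). At a 1.5-fold threshold Gpr65, at 0.61, counted as higher on the array labelled RBPJ-null than on control Esam(hi). Beyond the scaling itself, the cause was not tested. Over all 19938 genes, dim ones included, median centring moved the median difference between the control arrays from 0 to -0.11.

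Counts over all genes moved more. For control Esam(hi) against control Esam(lo), the 75 higher genes became 47 with median centring, 150 with quantile normalization, 180 with the trend removed, 405 at 1.5-fold and 12 at 3-fold; the 1066 lower became 651, 487, 2944 and 196 (quantile normalization, trend, 1.5-fold, 3-fold). For the array labelled RBPJ-null against control Esam(lo), the 7 higher became 4 under the stricter filter, 37 at 1.5-fold and 3 at 3-fold, and the 18 lower became 48 and 2. Against control Esam(hi), the 1203 higher became 719, 567, 3014 and 257, and the 110 lower became 72 (median centring), 211, 223, 528 and 20. No paired analysis was possible because each group has 1 array.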
